A study of Mus musculus with 8 samples.

Results

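The 10 genes described here encode enzymes that make, lengthen and desaturate fatty acids, together with the transcription factor that controls many of them. They are Srebf1, Acly, Acaca, Fasn, Elovl3, Elovl5, Elovl6, Scd1, Scd2 and Fads2. They were chosen by name, and every non-control probe whose accession maps to one of these symbols was read. That gave 13 of 39429 probes and 10 of 19751 named genes, and all 10 genes were among the 15834 that were tested. Acly had 2 probes, Acaca had 3, and the other 8 genes had 1 each.

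RNA from whole livers of 8 mice was measured on 1-colour mouse arrays, with 1 array per mouse and 2 mice in each of 4 groups. The groups were AKP::Keap1 males, AKP males, AKP::Keap1 females and AKP females. In the liver of both genotypes an activated oncogene was expressed along with p53 R172H, a mutant form, so the AKP controls carried these 2 as well. AKP::Keap1 mice additionally had Keap1 deleted. Keap1 is the adaptor that keeps the transcription factor Nrf2 low by targeting it for degradation, and the series concerns cancer of the bile ducts. The promoter that drove recombination, the share of liver cells that recombined and the ages of the mice are not given in the sources used here.

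New fatty acids are built in the cytosol. ATP citrate lyase (Acly) makes acetyl-CoA from citrate, acetyl-CoA carboxylase (Acaca) turns it into malonyl-CoA, and fatty acid synthase (Fasn) joins these units into palmitate. Elongases of the Elovl family then add carbons in the endoplasmic reticulum, while stearoyl-CoA desaturases (Scd) and the delta-6 desaturase Fads2 put in double bonds. In liver, the whole route is switched on after feeding, largely by the transcription factor SREBP-1c that Srebf1 encodes, with help from the carbohydrate-responsive factor ChREBP.

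The promoters of 4 of the 8 genes that fell in males are shown, namely Fasn, Srebf1, Elovl5 and Elovl6. They come from RefSeq on build GRCm38.p6 and run from 250 bases before the transcription start to 50 after it. The table held 9 such windows for 7 of the 10 genes, and Scd1, Scd2 and Elovl3 were not matched. The windows of Acly, Acaca and Fads2, which also fell in males, are not printed. The Fasn window lies at chr11:120824498-120824797 on the minus strand. The Srebf1 window printed, 1 of 3 for that gene, lies at chr11:60210422-60210721 on the minus strand. The Elovl5 window lies at chr9:77917115-77917414 and the Elovl6 window at chr3:129532136-129532435, both on the plus strand. Capitals mark matches to CCAAT, the box bound by NF-Y, or to the E-box CACGTG, on either strand.
Fasn: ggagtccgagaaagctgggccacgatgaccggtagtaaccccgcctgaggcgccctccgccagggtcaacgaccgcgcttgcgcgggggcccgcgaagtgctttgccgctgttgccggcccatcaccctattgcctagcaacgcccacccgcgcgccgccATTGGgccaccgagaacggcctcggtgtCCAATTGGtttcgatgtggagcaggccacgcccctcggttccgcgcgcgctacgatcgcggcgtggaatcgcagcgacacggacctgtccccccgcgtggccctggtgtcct
Srebf1: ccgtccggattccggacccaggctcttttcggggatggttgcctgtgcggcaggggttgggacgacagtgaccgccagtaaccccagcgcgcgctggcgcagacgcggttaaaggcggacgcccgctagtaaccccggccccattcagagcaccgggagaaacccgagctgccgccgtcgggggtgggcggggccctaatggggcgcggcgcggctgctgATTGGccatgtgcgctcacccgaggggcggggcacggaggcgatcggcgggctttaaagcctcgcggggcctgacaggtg
Elovl5: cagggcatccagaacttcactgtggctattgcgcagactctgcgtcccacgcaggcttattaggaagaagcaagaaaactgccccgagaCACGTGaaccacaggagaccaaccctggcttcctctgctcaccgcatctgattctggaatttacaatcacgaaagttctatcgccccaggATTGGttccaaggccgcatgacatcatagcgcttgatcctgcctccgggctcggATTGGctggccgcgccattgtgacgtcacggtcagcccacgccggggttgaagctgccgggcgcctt
Elovl6: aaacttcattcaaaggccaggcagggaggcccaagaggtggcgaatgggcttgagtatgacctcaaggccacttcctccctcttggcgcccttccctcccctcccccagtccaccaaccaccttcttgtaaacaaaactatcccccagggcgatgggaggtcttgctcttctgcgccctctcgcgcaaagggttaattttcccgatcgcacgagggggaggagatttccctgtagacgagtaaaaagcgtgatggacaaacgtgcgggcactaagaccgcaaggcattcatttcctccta

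Both strands of all windows were searched for 6 short motifs. CCAAT was found in 5 of the 9 windows, in Acly, Elovl5, Fasn and Srebf1, against 37.4% of all 32851 windows of this length. In the Fasn window its 3 matches begin at bases -90, -62 and -59 from the start, and the last 2 overlap. In the Elovl5 window 2 matches begin at -71 and -17, and the single CACGTG match begins at -161. CACGTG was in 1 of the 9 windows and in 7.15% of all windows. The GC box GGGCGG was in 4 of the 9 windows, in Acly, Fads2 and Srebf1, and in 35.7% of all windows. The classical sterol regulatory element and a shorter form of it, TCACNCCAC, were in none of the 9 windows, and in 0.0913% and 1.24% of all windows. TGACNNNGC, the core of the antioxidant response element, was also in none of the 9 and in 12.4% of all windows. The Elovl6 window held none of the 6 motifs. A match is only a description of these letters, and a missing match says nothing about binding.

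Signals are given as log2 of the processed spot signal minus the 75th percentile of that array, so that 0 stands at that percentile. On this scale levels of one probe can be compared between mice but not with those of another probe. Between 65.7% and 70.7% of non-control spots on each array were well above background and none was saturated. Mice of the same group correlated at 0.99 over the 15834 genes tested, with 1 probe per gene. Keap1 itself had a log2 signal of -1.35 and -1.40 in AKP::Keap1 males against 1.83 and 2.14 in AKP males, and -0.52 and -0.72 in AKP::Keap1 females against 1.68 and 1.77 in AKP females. The Keap1 signal thus fitted the labels in all 8 livers. Each group was hybridised on a slide of its own, and the arrays of males and of females were scanned on different days, so slide and group cannot be told apart, nor scan day and sex. The labels do not say whether the mice were littermates. With 2 mice per group, the number of arrays limits the precision of every estimate.

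All 7 hepatocyte markers were well above background on all 8 arrays. Their summed linear signal, in units of the array's 75th percentile, ranged over 948 to 972 in AKP::Keap1 males, 1366 to 1572 in AKP males, 851 to 1096 in AKP::Keap1 females and 1054 to 1158 in AKP females. That of 6 bile duct markers ranged over 71.4 to 84.5, 6.76 to 8.70, 36.7 to 80.0 and 3.11 to 8.48 in the same 4 groups. Between genotypes, averaged over the sexes, 4 of the 7 hepatocyte markers were lower and 6 of 6 bile duct markers were higher in AKP::Keap1 livers. Of the hepatocyte markers called, Cps1 fell by 1.23 on the log2 scale, and Apoa1, Tat and Hnf4a fell by 0.64, 0.75 and 0.48. The lowering of these markers runs the same way as that of most lipogenic genes below, and its part in the results was not tested. In whole tissue, fewer cells of a type and less RNA per cell cannot be told apart.

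Most of the 10 genes were lower in AKP::Keap1 livers. In the comparison of AKP::Keap1 with AKP livers averaged over the sexes, 8 of the 10 genes fell, 1 rose, and Elovl3 did not pass the test. The test was limma across 15834 genes, with a call at a Benjamini-Hochberg adjusted p below 0.05. Over all genes tested, 17.2% were called lower and 21.8% higher in this comparison, or 39.1% in either direction. The median log2 difference of the 10 genes was -1.23, against -0.00092 over all genes. Among the 1584 genes with the highest mean signal, to which Acly, Acaca, Scd1 and Elovl5 belong, the median was -0.16. The signals of the 4 AKP::Keap1 and the 4 AKP livers did not overlap for Fasn, Elovl5, Elovl6, Scd1, Scd2 and Fads2. Over all genes, 27.0% showed no overlap. With 2 mice against 2 within a sex, 73.0% of all genes in males and 65.1% in females showed none. Of the 10 genes, 9 showed none in males and 7 in females, so separation within a sex says little by itself.

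**Figure D1:**
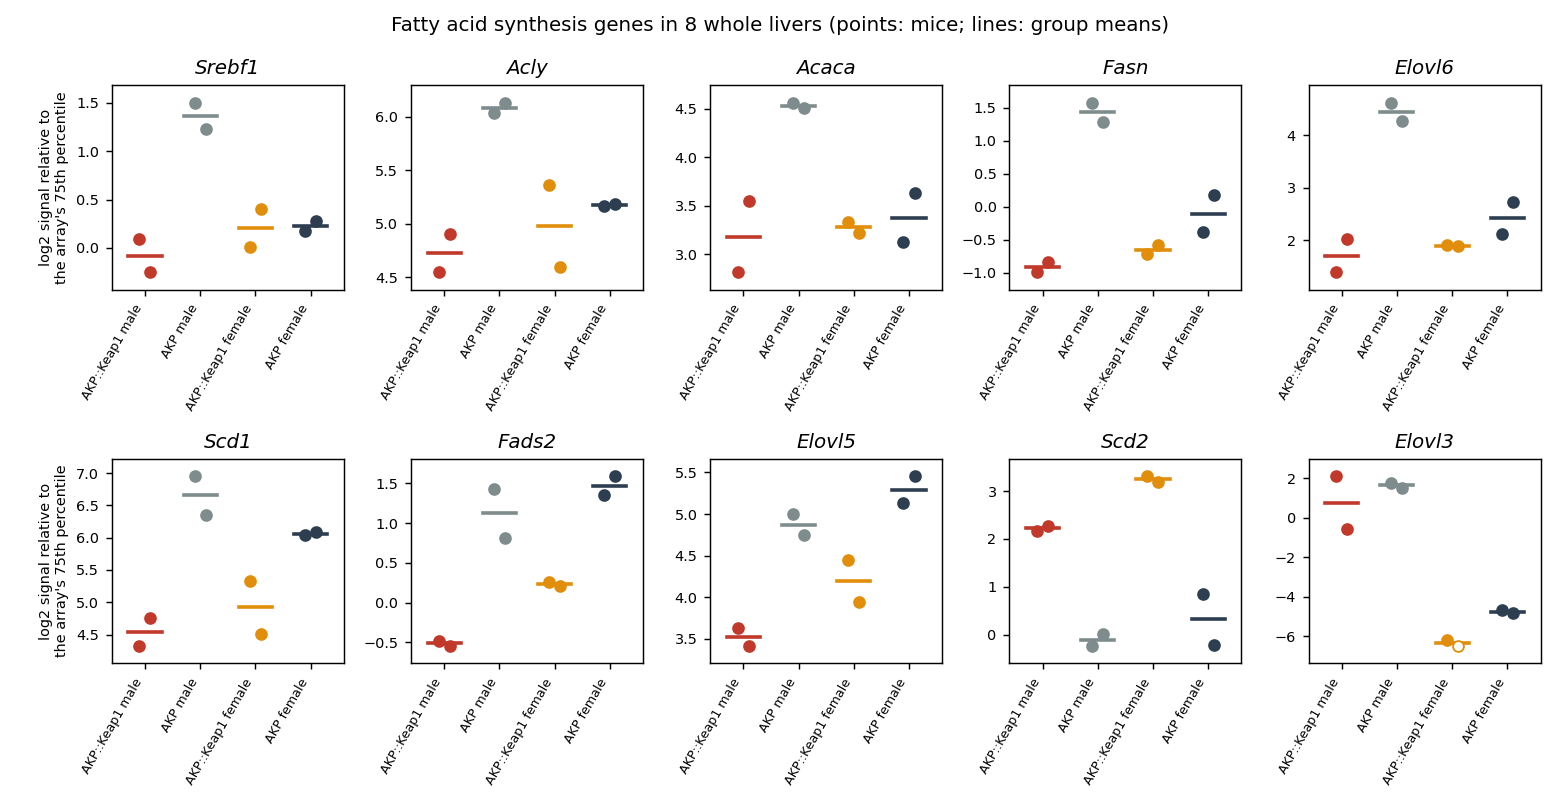
Log2 signal relative to the array's 75th percentile (y axis) of the 10 genes in each of 8 mice, in the order AKP::Keap1 male, AKP male, AKP::Keap1 female, AKP female; points are mice, lines are group means of 2 mice, and an open point was not well above background. AKP males stand above the other 3 groups for Srebf1, Acly, Acaca, Fasn, Elovl6 and Scd1, and Scd2 is the gene that is higher in both AKP::Keap1 groups.

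Srebf1 encodes the regulator of the route. Its log2 signal was 0.09 and -0.25 in AKP::Keap1 males against 1.5 and 1.22 in AKP males. In females it was 0.01 and 0.40 in AKP::Keap1 mice against 0.17 and 0.27 in AKP mice. The 2 AKP males stood above all other 6 livers, which lay within -0.25 and 0.40. Averaged over the sexes, Srebf1 fell by 0.73 ± 0.14 (SE) in AKP::Keap1 livers (limma, adjusted p = 0.0098). The difference was -1.44 ± 0.20 in males (adjusted p = 0.0071) and -0.02 ± 0.20 in females (adjusted p = 0.96), where the 95% interval ran from -0.50 to 0.46. The call averaged over the sexes was lost on the deposited signals without scaling between arrays (-0.42, adjusted p = 0.107). These are called unscaled signals here. It was also lost with slide as a random block (adjusted p = 0.136, SE 0.31). The slide model takes the genotype difference as equal in both sexes. Each slide held 1 group, so this model cannot tell slide from a genotype difference that varies by sex.

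Acly and Acaca, which supply acetyl-CoA and malonyl-CoA, had the same pattern on their brightest probes. The log2 signal of Acly was 4.55 and 4.90 in AKP::Keap1 males against 6.04 and 6.13 in AKP males, and 5.36 and 4.60 in AKP::Keap1 females against 5.17 and 5.18 in AKP females. The groups were apart in males, whereas in females the AKP mice lay between the AKP::Keap1 mice. Averaged over the sexes Acly fell by 0.78 ± 0.18 (adjusted p = 0.0193). The log2 signal of Acaca was 2.82 and 3.55 in AKP::Keap1 males against 4.56 and 4.51 in AKP males, and 3.34 and 3.22 in AKP::Keap1 females against 3.13 and 3.63 in AKP females. The females again overlapped, and averaged over the sexes Acaca fell by 0.73 ± 0.19 (adjusted p = 0.0284). In males, where the groups did not overlap, Acly differed by -1.36 ± 0.26 (adjusted p = 0.0165) and Acaca by -1.35 ± 0.27 (adjusted p = 0.0188). In females Acly differed by -0.19 (95% interval -0.82 to 0.43, adjusted p = 0.62) and Acaca by -0.10 (-0.76 to 0.56, adjusted p = 0.82). These averaged calls were the least stable of the 8: each was lost on unscaled signals and with slide as a random block. Leaving out 1 mouse also ended them, for Acly AKP male 2, AKP::Keap1 male 1 or either AKP female (adjusted p up to 0.0605), and for Acaca any mouse other than AKP::Keap1 male 2 or AKP female 1 (0.0533 to 0.0798). In males the Acly call was likewise lost without any 1 of the 4 male mice (0.0566 to 0.0757), and that of Acaca without either AKP male or AKP::Keap1 male 1 (0.0637 to 0.0779).

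The remaining probes of Acly and Acaca had lower signals and did not repeat this pattern in females throughout. In a fit over all 28437 kept probes, added after the values were seen, the second Acly probe fell by 1.62 in males (adjusted p = 0.0079) and by 2.17 in females (adjusted p = 0.0040). Its log2 signal was -3.76 and -4.46 in AKP::Keap1 females against -1.85 and -2.03 in AKP females, so that here the females did not overlap. Acaca probe A_55_P2084703 differed by -1.17 in males (adjusted p = 0.109) and by -1.56 in females (adjusted p = 0.0597), and passed only averaged over the sexes (-1.36, adjusted p = 0.0208). Acaca probe A_55_P2121392 fell by 1.95 in males (adjusted p = 0.0041) and differed by -0.69 in females (adjusted p = 0.0704). All 5 probes of both genes were lower in AKP::Keap1 livers averaged over the sexes, and they disagreed on the size in females. With the mean of all kept probes in place of the brightest, Acly also passed in females (-1.18, adjusted p = 0.0186). Which transcripts each probe reads was not tested.

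**Figure D2:**
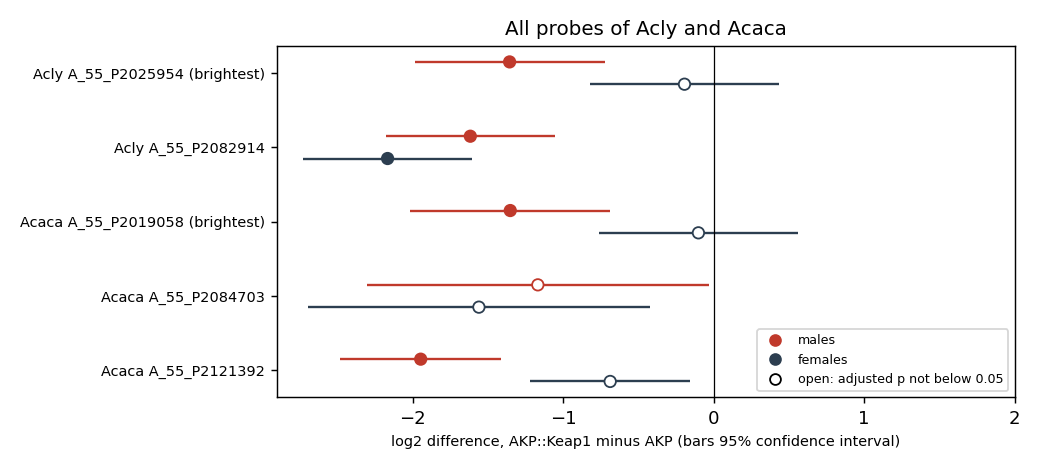
Log2 difference, AKP::Keap1 minus AKP (x axis), of each of the 5 probes of Acly and Acaca in males and in females; bars are 95% confidence intervals, and open points did not pass an adjusted p below 0.05. The second Acly probe is the only one of the 5 that passed in females, at -2.17.

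Fasn, the synthase itself, fell further. Its log2 signal was -0.99 and -0.84 in AKP::Keap1 males against 1.58 and 1.29 in AKP males, which is 5.09-fold lower (-2.35 ± 0.22, adjusted p = 0.0023). In females it was -0.72 and -0.58 in AKP::Keap1 mice against -0.38 and 0.18 in AKP mice, a difference of -0.55 ± 0.22 that did not pass (adjusted p = 0.117). All 4 AKP::Keap1 livers lay below all 4 AKP livers, and averaged over the sexes Fasn fell by 1.45 ± 0.15 (adjusted p = 0.0018). This call held under all 18 alternatives, with differences between -1.69 and -1.14.

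Of the 3 elongases, Elovl6 and Elovl5 fell and Elovl3 did not pass. Elovl6, which lengthens palmitate to stearate, had a log2 signal of 1.39 and 2.01 in AKP::Keap1 males against 4.63 and 4.28 in AKP males. In females it was 1.91 and 1.88 in AKP::Keap1 mice against 2.12 and 2.73 in AKP mice. Within each sex the genotypes did not overlap, as for most genes tested, and the gap was wide in males and narrow in females. Elovl6 was 6.74-fold lower in AKP::Keap1 males (-2.75 ± 0.28, adjusted p = 0.0031), and in females the difference of -0.53 ± 0.28 did not pass (adjusted p = 0.222). Averaged over the sexes it fell by 1.64 ± 0.20 (adjusted p = 0.0027).

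Elovl5, which lengthens polyunsaturated fatty acids, fell in both sexes. Its log2 signal was 3.63 and 3.42 in AKP::Keap1 males against 5.0 and 4.75 in AKP males, and 4.45 and 3.95 in AKP::Keap1 females against 5.13 and 5.45 in AKP females. No AKP::Keap1 liver reached the lowest AKP liver. Elovl5 fell by 1.35 ± 0.22 in males (adjusted p = 0.0109), by 1.09 ± 0.22 in females (adjusted p = 0.0208) and by 1.22 ± 0.16 over both (adjusted p = 0.0030). The female call was lost without AKP female 2 (-0.93, adjusted p = 0.102) or AKP::Keap1 female 2 (-0.84, adjusted p = 0.0779), and in a fit of the 4 female arrays alone (adjusted p = 0.0698). The male call was lost without AKP male 1 (-1.23, adjusted p = 0.0544) or AKP::Keap1 male 2 (-1.25, adjusted p = 0.0653).

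Elovl3, an elongase of saturated and monounsaturated chains whose expression in mouse liver is known to be higher in males, differed between the sexes more than between the genotypes. Its log2 signal was 2.08 and -0.58 in AKP::Keap1 males against 1.77 and 1.52 in AKP males, and -6.22 and -6.49 in AKP::Keap1 females against -4.70 and -4.85 in AKP females. AKP::Keap1 male 2 stood apart from the other 3 males, and the spot of AKP::Keap1 female 2 was not well above background. The genotype difference averaged over the sexes was -1.24 ± 0.55 (adjusted p = 0.118). It passed without AKP::Keap1 male 1 (-1.90, adjusted p = 0.0036) or without AKP::Keap1 male 2 (-0.57, adjusted p = 0.0357), so that its size rested on which of these mice was used. In males the difference was -0.89 in all mice (adjusted p = 0.41). It was -2.23 without AKP::Keap1 male 1 (adjusted p = 0.0107), and it turned to 0.44 without AKP::Keap1 male 2 (adjusted p = 0.21). In females it was -1.58 (adjusted p = 0.187). The 4 groups share 1 estimate of the spread, and the SD was 1.89 in AKP::Keap1 males. It was 0.18 in AKP::Keap1 females and 0.11 in AKP females. The female difference passed in 3 of 17 alternatives, those in which the AKP::Keap1 males gave no spread. Among them was the fit of the 4 female arrays alone (adjusted p = 0.0336).

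The 3 desaturases split. Scd1, the main stearoyl-CoA desaturase of liver, had a log2 signal of 4.33 and 4.76 in AKP::Keap1 males against 6.95 and 6.36 in AKP males, and 5.32 and 4.52 in AKP::Keap1 females against 6.04 and 6.09 in AKP females. Each AKP::Keap1 liver lay below each AKP liver. Scd1 fell by 2.11 ± 0.33 in males (adjusted p = 0.0095) and by 1.63 ± 0.23 over both sexes (adjusted p = 0.0039). In females the difference of -1.14 ± 0.33 missed the threshold (adjusted p = 0.0533) and passed in 8 of 18 alternatives.

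Fads2, the delta-6 desaturase of polyunsaturated fatty acid synthesis, had a log2 signal of -0.49 and -0.54 in AKP::Keap1 males against 1.43 and 0.82 in AKP males. In females it was 0.25 and 0.21 in AKP::Keap1 mice against 1.35 and 1.59 in AKP mice. The genotypes were apart in both sexes. Fads2 fell by 1.64 ± 0.21 in males (adjusted p = 0.0062), by 1.24 ± 0.21 in females (adjusted p = 0.0140) and by 1.44 ± 0.15 over both (adjusted p = 0.0018). The female call was lost without AKP female 2 (adjusted p = 0.0771) or AKP::Keap1 female 2 (adjusted p = 0.0610).

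Scd2, a stearoyl-CoA desaturase that in mice is prominent in brain and in the neonatal liver, moved the other way. Its log2 signal was 2.17 and 2.26 in AKP::Keap1 males against -0.23 and 0.01 in AKP males, and 3.30 and 3.20 in AKP::Keap1 females against 0.84 and -0.21 in AKP females. The lowest AKP::Keap1 liver stood above the highest AKP liver. Scd2 rose by 2.33 ± 0.33 in males (5.02-fold, adjusted p = 0.0073), by 2.93 ± 0.33 in females (7.64-fold, adjusted p = 0.0050) and by 2.63 ± 0.23 over both (adjusted p = 0.0012). All 3 calls held under all 18 alternatives. Scd1 and Scd2 are close paralogs, and whether a probe of one also binds transcripts of the other was not tested. The group means of the Scd2 and Scd1 probes differed in opposite directions in both sexes.

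Taken by sex, 8 of the 10 genes fell and 1 rose in males, where 11.5% of all genes were called lower and 16.7% higher (28.2% in either direction). In females 2 fell (Fads2 and Elovl5) and 1 rose (Scd2), where 9.1% of all genes were called lower and 12.3% higher (21.4% in either direction). The median log2 difference of the 10 genes was -1.40 in males and -0.54 in females, against -0.028 and 0.047 over all genes. Among the 1584 genes with the highest mean signal the median was -0.35 in males and 0.023 in females. Of the 7 hepatocyte markers, 4 were called lower in males and 1, Cps1, in females. Their median difference was -0.64 in males and -0.32 in females, and the part of either in the results by sex was not tested. Without AKP female 2, or without AKP::Keap1 female 2, fewer of the 10 genes and fewer of all genes were called in females. The female difference was then -1.12 or -1.22 for Fads2, and -0.93 or -0.84 for Elovl5. That of Scd2 ran from 2.41 to 3.46 with 1 mouse left out.

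**Figure D3:**
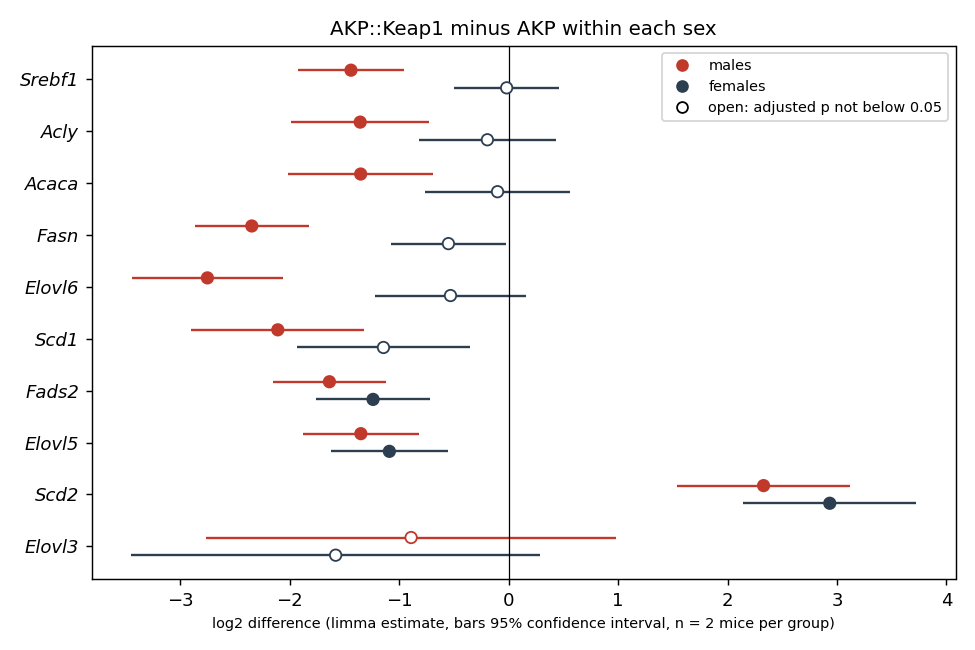
Log2 difference, AKP::Keap1 minus AKP (x axis), of the 10 genes in males and in females with 95% confidence intervals; open points did not pass an adjusted p below 0.05. Srebf1, Acly, Acaca, Fasn and Elovl6 lie further from 0 in males than in females, whereas the male and female intervals of Fads2, Elovl5 and Scd2 overlap widely.

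That test is the interaction, the female difference minus the male one. It was above 0 for 9 of the 10 genes, with a median of 1.06 against 0.012 over all genes, and none of the 10 passed in limma. It was also above 0 for all 7 hepatocyte markers, with a median of 0.40, and none of these passed. The share of all genes above 0 was not counted. Over all genes 1.72% were called in either direction, 0.411% above 0 and 1.31% below it, and 3666 of 15834 had an unadjusted p below 0.05. The interaction was 1.80 ± 0.30 for Fasn (adjusted p = 0.0510), 2.22 ± 0.40 for Elovl6 (adjusted p = 0.0595) and 1.42 ± 0.28 for Srebf1 (adjusted p = 0.069). Their unadjusted p-values were 0.0009 for Fasn, 0.0013 for Elovl6 and 0.0020 for Srebf1. These 3 genes passed under 4 of 17 alternatives. They were scaling to the array median, normexp background correction, a filter asking for all 8 arrays above background, and a trended robust variance. Calls over all genes rose under these 4 too, from 272 of 15834 to 1189, 395, 421 of 13948 and 541. Of these, 930, 233, 144 and 279 were above 0, against 65 as reported. The median interaction of all genes moved to 0.25 with the array median and 0.23 with normexp. Fasn passed in the fit over all probes as well (adjusted p = 0.0477). For Acaca the interaction was 1.25 ± 0.39 (adjusted p = 0.132) and for Acly 1.16 ± 0.37 (adjusted p = 0.137), and on the second Acly probe it was -0.55 (adjusted p = 0.35). It was 0.97 for Scd1 (adjusted p = 0.27), 0.60 for Scd2 (0.47), 0.40 for Fads2 (0.47) and 0.26 for Elovl5 (0.66). The 95% intervals of these 4 ran from -0.15 to 2.08, -0.51 to 1.72, -0.34 to 1.13 and -0.49 to 1.01, so a difference between the sexes of 1 log2 unit lay inside each. For Elovl3 it was -0.69 with an interval of -3.34 to 1.96.

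The comparison of females with males gives the same values from the other side. Averaged over the genotypes, 3 of the 10 genes were lower in females (Fasn, Elovl6 and Elovl3) and 1 was higher (Fads2), where 10.3% of all genes were called lower and 10.9% higher (21.1% in either direction). Scaling to the array median, and unscaled signals, each gave 4 lower and 0 higher, quantile normalisation 3 lower and 2 higher, and normexp 4 lower and 2 higher. The counts of all genes moved too, from 1624 lower and 1724 higher as reported. They were 2765 and 1276 with the array median, 3075 and 614 unscaled, 1493 and 1509 with quantile normalisation, and 1522 and 1270 with normexp. Elovl3 was lower in females by a log2 difference of -6.76 ± 0.55, or about 108-fold (adjusted p = 0.0021), and every female lay below every male, with 3 of the 4 females well above background. This call held under all 18 alternatives in which Elovl3 was tested, but its size did not. The fold was 68.3 without AKP::Keap1 male 1, 172 without AKP::Keap1 male 2, and 28.3 with normexp. The female minus male difference was -0.64 ± 0.15 for Fasn (adjusted p = 0.0351), -0.92 ± 0.20 for Elovl6 (adjusted p = 0.0282) and 0.55 ± 0.15 for Fads2 (adjusted p = 0.0497). The other 6 genes did not pass. The nearest were Elovl5, at 0.55 (adjusted p = 0.0536, and 0.0452 without AKP::Keap1 female 2), and Scd2, at 0.73 (adjusted p = 0.0689, and 0.0156 without AKP female 2). Leaving out 1 mouse ended the Fads2 call for 7 of the 8 mice, all but AKP male 1 (adjusted p 0.0688 to 0.134). It ended the Fasn call for all but AKP female 2 (0.0542 to 0.106), and the Elovl6 call for all but AKP male 2, AKP::Keap1 male 1 and AKP female 2 (0.0636 to 0.0852).

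The sexes were also compared within each genotype, an alternative added after the values were seen. In AKP mice 5 of the 10 genes were lower in females and none higher, where 9.76% of all genes were called lower and 9.69% higher (19.4% in either direction). They were Elovl3 (-6.42, adjusted p = 0.0085), Elovl6 (-2.03, adjusted p = 0.0112), Fasn (-1.53, adjusted p = 0.0112), Acaca (-1.16, adjusted p = 0.0359) and Srebf1 (-1.14, adjusted p = 0.0174). In AKP::Keap1 mice Elovl3 was the 1 gene called (-7.11, adjusted p = 0.0073), where 2.61% of all genes were called lower and 1.18% higher (3.8% in either direction). There the female minus male difference of the other 4 was 0.19 for Elovl6, 0.26 for Fasn, 0.09 for Acaca and 0.28 for Srebf1. Whether these differences differ between the genotypes is the interaction above, which none of the 10 passed.

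Beyond these 10 genes, the pathway was covered by a list of 52 further genes, of which 50 were tested and Elovl4 and Acsl6 were not kept. Averaged over the sexes, 13 of the 50 fell (26% against 17.2% of all genes), 4 rose (8% against 21.8%) and 33 did not pass, with a median log2 difference of -0.14. The counts followed the scaling, as those of all genes did. Scaling to the array median gave 28 lower and 2 higher, where 40.2% of all genes were called lower and 15% higher. Unscaled signals gave 5 lower and 10 higher, where 4.08% of all genes were called lower and 36.0% higher. In males 15 fell (30% against 11.5% of all genes) and 3 rose (6% against 16.7%). In females 4 fell (8% against 9.1% of all genes) and 3 rose (6% against 12.3%), shares below those of all genes. The interaction was above 0 for 43 of the 50 genes, with a median of 0.37 against 0.012 over all genes, and none passed. The share of all genes above 0 was not counted. Among the 1584 genes with the highest mean signal, the median genotype difference was -0.35 in males and 0.023 in females. The part of brightness in this count was not tested.

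Of the 12 regulators 5 fell and 1 rose. Insig1, which holds the SREBP precursors in the endoplasmic reticulum and is itself an SREBP target, fell by 0.98 ± 0.09 (adjusted p = 0.0015), and in both sexes. Rxra, the partner of nuclear receptors such as LXR, fell by 0.50 ± 0.10 (adjusted p = 0.0105). Srebf2, the regulator of cholesterol synthesis, rose by 0.38 ± 0.10 (adjusted p = 0.0241), passed in 8 of 18 alternatives, and its dimmer probe differed by -0.33. Of the 5 genes of carbon and NADPH supply, Pklr alone passed. Pklr, the liver pyruvate kinase and a classic ChREBP target, had a log2 signal of -1.21 and -0.80 in AKP::Keap1 males against 0.91 and 0.61 in AKP males, and -1.78 and -1.65 in AKP::Keap1 females against 0.32 and 0.36 in AKP females. The genotypes were apart in both sexes, and Pklr fell by 1.91 ± 0.13 (adjusted p = 0.0006).

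Of the 6 partners of acetyl-CoA carboxylase 2 fell. Mlycd, which breaks malonyl-CoA down, fell by 0.47 ± 0.09 (adjusted p = 0.0096), and Mid1ip1, which promotes polymerisation of the carboxylase, fell by 0.71 ± 0.19 (adjusted p = 0.0291) and passed in 9 of 18 alternatives. Thrsp, the Spot 14 partner of Mid1ip1, was singled out after its values were seen. It fell by 2.37 ± 0.46 in males (adjusted p = 0.0173), and differed by 0.66 in females (adjusted p = 0.338), with an interaction of 3.04 (adjusted p = 0.077).

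Of the 9 other elongases and enzymes of the elongation cycle, 2 rose and 1 fell. Elovl7, an elongase of saturated and monounsaturated very long chains, had a log2 signal of -0.88 and -0.88 in AKP::Keap1 males against -5.36 and -4.61 in AKP males, and -0.18 and -0.07 in AKP::Keap1 females against -4.79 and -5.33 in AKP females. Each AKP::Keap1 liver stood above each AKP liver, and Elovl7 rose by 4.52 ± 0.20 (adjusted p = 0.0002). Elovl1 rose by 0.32 ± 0.09 (adjusted p = 0.0312) and passed in 8 of 18 alternatives. Elovl2, which lengthens polyunsaturated chains after Elovl5, fell by 1.15 ± 0.26 (adjusted p = 0.0163), and its adjusted p was 0.0506 without AKP::Keap1 male 2, 0.0514 without AKP male 1 and 0.0535 without AKP female 2, which ended the call. Of the 8 other desaturases and electron donors, Fads1, the delta-5 desaturase that acts after Fads2, fell by 1.28 ± 0.10 (adjusted p = 0.0008). Scd3 fell by 1.47 ± 0.27 on its brightest probe (adjusted p = 0.0079, and 0.0563 with slide as a random block), while its other 2 probes differed by -0.15 and 0.13. Fads3 rose by 1.31 ± 0.21 (adjusted p = 0.0053).

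Averaged over the sexes, none of the 6 genes of mitochondrial fatty acid synthesis passed in limma, of which 1 had an unadjusted p below 0.05. The nearest was Ndufab1, the acyl carrier protein, at -0.41 ± 0.13 (adjusted p = 0.0510), which passed in 6 of 18 alternatives, among them array median scaling (-0.65, adjusted p = 0.0074) and leaving out AKP::Keap1 female 1 (-0.53, adjusted p = 0.0153). In males 1 of the 6 genes fell, and Ndufab1 differed by -0.84 there and by 0.02 in females. Of 4 acyl-CoA synthetases, which activate fatty acids, Acsl1 fell by 0.79 ± 0.18 (adjusted p = 0.0170) and Acsl5 by 0.61 ± 0.11 (adjusted p = 0.0089). The calls of Rxra, Mlycd, Acsl5 and Acsl1 were lost on unscaled signals. That of Acsl1 was also lost without AKP male 1, AKP::Keap1 male 2, AKP female 2 or AKP::Keap1 female 2 (adjusted p 0.0505 to 0.0534).

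**Figure D4:**
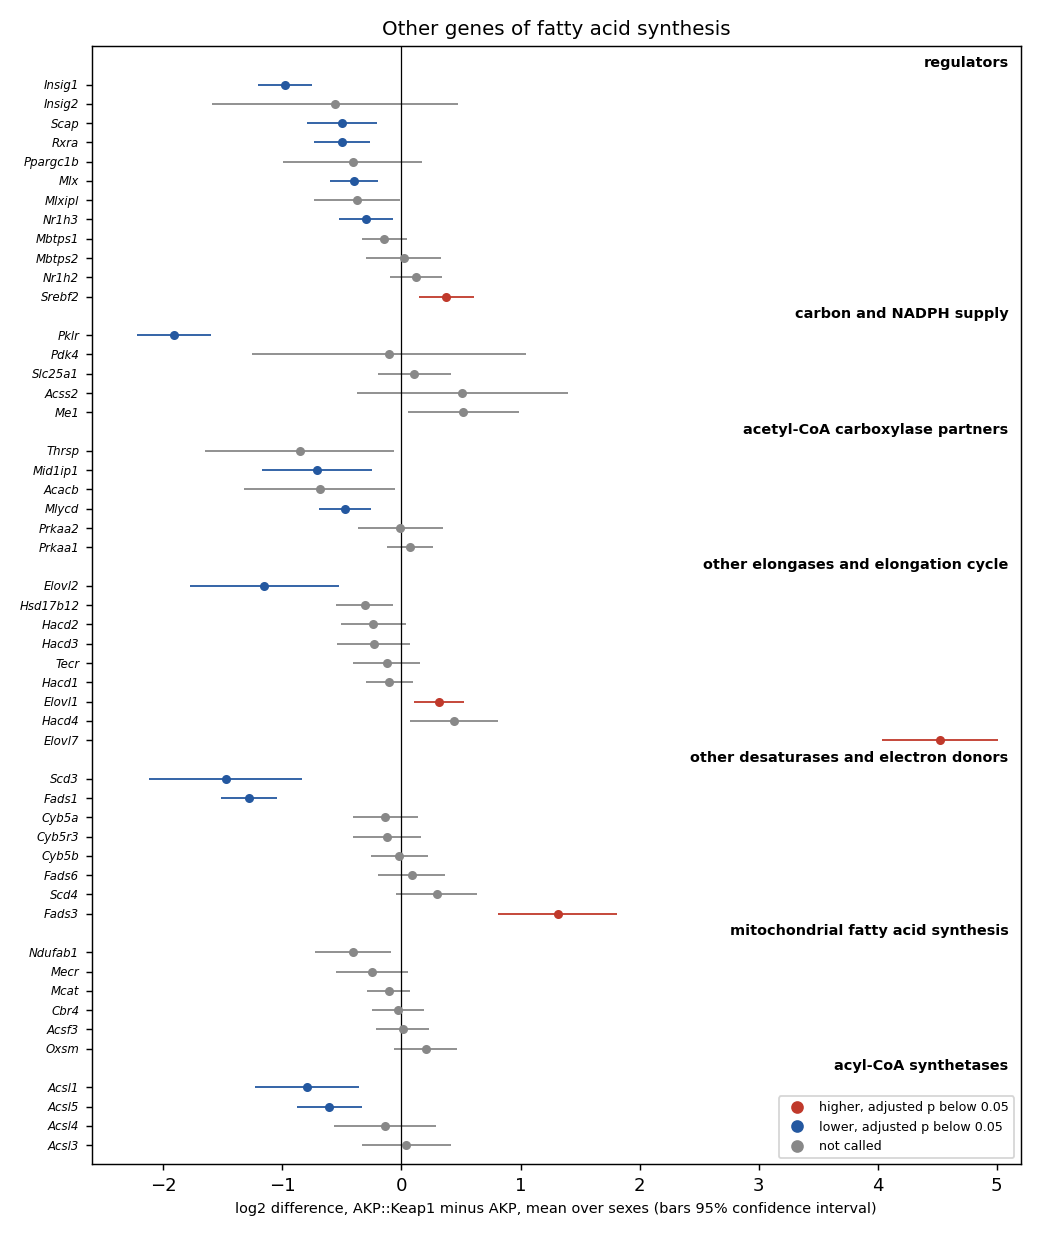
Log2 difference, AKP::Keap1 minus AKP averaged over the sexes (x axis), of 50 other genes of fatty acid synthesis in 7 groups, with 95% confidence intervals; colours mark genes called higher, called lower or not called at an adjusted p below 0.05. Elovl7 at 4.52 and Pklr at -1.91 stand furthest from 0 on either side.

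For 3 genes the nearest expression profiles were listed, by Euclidean distance between log2 profiles centred over the 8 arrays. The nearest to Fasn were Elovl6 (distance 0.67), Eaf2, Icam4, Tbc1d16 and Klk1b5, the last at 0.93. Fasn itself lay 2.62 from a flat profile on this measure. The nearest to Scd2 were Bex4 (0.78), Cacna2d4, Psrc1, Il31ra and Ugdh (1.04), and Scd2 lay 3.96 from a flat profile. The nearest to Elovl3 were Slco1a1 (2.29), Cyp4a12a, Nox4, Nat8 and Pax2 (3.92), against 9.92 for a flat profile. All 5 neighbours of Elovl3 had lower mean signals in females, with female minus male differences between -7.88 and -4.54 on the log2 scale. Their direction follows from how they were picked, since the Elovl3 profile is mainly a sex difference.

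Markers of other cells were read beside these results. Fatty acid synthesis also runs in fat, and of 6 adipocyte markers Adipoq, Plin1, Lep and Ucp1 were not kept, while the other 2 were not called between the genotypes averaged over the sexes. In males 1 of these 2, Cfd, was higher in AKP::Keap1 livers, by 4.83 on the log2 scale. In the same comparison all 4 neutrophil markers were higher, as were 3 of 5 markers of stellate cells and fibroblasts. None of the 4 macrophage markers kept was called. Scd2 and Elovl7 rose in the same livers as the bile duct, neutrophil and fibroblast markers, and the part of these cells in either rise was not tested. Averaged over the sexes, 2 of 3 neuron and glia markers were also higher in AKP::Keap1 livers, with log2 differences of 1.94 (Mbp) and 0.77 (Snap25), as were 2 of 5 T and B cell markers, with 0.85 (Cd79a) and 0.73 (Cd3e). Of 2 pancreas acinar markers kept, Cela1 was higher (3.55) and Amy2a5 lower (-0.79), while a dimmer Amy2a5 probe differed by 0.52. Cpa1 and Prss1, which were not kept, were well above background in AKP female 2 only. The part of these cells was not tested either.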

How the data were processed

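The deposited scanner files give an intensity for every spot. Per the file headers it came from Agilent Feature Extraction 10.7.3.1, while the submitters' processing notes name version 10.1. The processed signal used is an intensity after that software's background subtraction, and the deposited series matrix held the same intensity values in 355176 of 355176 cases, without scaling between arrays. Per the labels' protocols, 500 ng of total RNA was labelled with Cy3. Other deposited columns used were the flags that the authors' software set for spots well above background, saturated or outlying, which are not measurements.

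Each array had 44397 spots, and 1377 control spots and all outlier spots were left out. Log2 signals of the spots of a probe were averaged and the array's 75th percentile was subtracted. Probes were named through their accessions in a RefSeq table of GRCm38.p6: 26055 received 1 symbol and 13374 none. Probes with a value on all 8 arrays that exceeded background clearly on 2 or more were kept, and each gene was represented by its brightest kept probe. Differences were fitted with limma 3.58.1 in R 4.3.3 (1 mean per group, moderated, two-sided, Benjamini-Hochberg adjusted over 15834 genes, no covariates), a fit that was tested on simulated data. The replicate numbers were not taken as pairs. Deviations of same-numbered mice correlated at -0.16 to 0.12 between groups, which with 2 mice per group cannot exclude pairing. The files have no mean signal column, so the normexp alternative used the median spot signal with an offset of 50. Groups followed the sample titles, and the p-values measure the spread between these mice.

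All 10 genes and all their probes are named in the text. From the list of 52 further genes, up to 2 called rises and 2 called falls with the smallest adjusted p per group are named, or, without any call, the gene of smallest p. The members and lists were chosen with earlier results of these data known. One allele of the model is not reported here.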

Additional observations from a re-analysis of the deposited data

Results flagged for a closer look

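Fasn was flagged because its sexes were ordered oppositely in the 2 genotypes. The share of all genes with such an order was not counted. Both AKP::Keap1 females, at log2 signals of -0.72 and -0.58, lay above both AKP::Keap1 males, at -0.99 and -0.84. Both AKP females, at -0.38 and 0.18, lay below both AKP males, at 1.58 and 1.29. The female minus male difference was 0.26 in AKP::Keap1 livers and -1.53 in AKP livers, and the difference between the 2, the interaction, was 1.80 ± 0.30 (limma, adjusted p = 0.0510). It missed the threshold, and its adjusted p ranged from 0.0285 to 0.155 over 17 alternatives. The slides and scan days of the groups cannot be told apart from genotype and sex.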

How the results depend on the processing

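Of the 10 genes, 6 to 9 were called by genotype under every alternative that kept all mice, against 9 as reported, and Fasn, Elovl5, Elovl6, Scd1, Scd2 and Fads2 were called under all 18. No gene changed sign in that comparison. Leaving out 1 mouse gave 7 to 10 calls there, 6 to 9 in males, 1 to 4 in females, 0 for the interaction, 1 to 4 by sex, and 10 to 15 of the 50 further genes. The count of further genes, 17 as reported, was 30 with scaling to the array median and 10 with slide as a random block. Over all genes 8744 and 3310 were called under these 2 settings, against 6185 as reported. In females 5 genes were called with the mean of all kept probes, where 3754 of all genes were called, against 3390 as reported. For the interaction 3 were called under array median scaling, normexp, the filter on all 8 arrays, or a trended robust variance, against 0. Interaction calls over all genes rose under these 4 as well. By sex 1 was called with slide as a random block and 1 within AKP::Keap1. Over all genes 326 and 601 were called there, against 3348 as reported. The replicate block gave 3 genes by sex, 0 for the interaction, 9 over both sexes, 9 in males, 3 in females and 16 further genes. Over all genes it called 2676 by sex, 59 for the interaction, 5641 over both sexes, 3775 in males and 2949 in females. Fads2 by sex was the call it ended (adjusted p = 0.0696), and it changed no other call of the 10 genes. Signs turned for values that had not passed. For Elovl5 the interaction was -0.14 with quantile normalisation and -0.13 on unscaled signals. For Scd1 the sex difference was 0.044 with quantile normalisation and -0.31 to 0.094 with 1 mouse left out. For Elovl3 the interaction was 0.44 with normexp and -2.02 to 0.64 with 1 mouse left out, and the male difference was -2.23 to 0.44. In females, unscaled signals gave 0.096 for Srebf1 and 0.012 for Acaca, and leaving out 1 mouse gave -0.22 to 0.18 for Srebf1, -0.35 to 0.15 for Acaca and -0.57 to 0.18 for Acly. The mean of kept probes gave an Acly sex difference of 0.23. The causes were not tested. The median of all genes by genotype was -0.25 with array median scaling, -0.13 with normexp and 0.31 on unscaled signals, so differences under those settings are relative to it. Elovl3 in AKP::Keap1 female 2, and 1 array of an Acaca probe, were too dim to be well above background.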
